A study of Mus musculus with 4 samples.

Results

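The Ifitm genes and Bst2 are 6 of the 24532 genes for which expression was given in mouse articular cartilage, sham-operated or injured, at a young and an adult age. They were taken by gene symbol and are Ifitm1, Ifitm2, Ifitm3, Ifitm5, Ifitm6 and Bst2. All 6 were found and all were above 0 in every library, so that none was lost to a filter on low values. The 4 groups, each represented by 1 library, were sham and injured cartilage of young and of adult wild type (C57BL/6) animals. Young animals were aged 3 weeks. For the adults the methods of the study give 10 weeks, the sample titles 12 weeks and another label 14 weeks. The injury was a full-thickness cartilage injury (FTCI) of the patellar groove, made with a needle in male mice, with RNA taken at day 3; the sample labels instead name destabilization of the medial meniscus (DMM). The adult sham label spans days 3 to 14. RNA came from pools of 10 injured or 5 control mice, which the methods call uninjured and the labels sham-operated, so that the 4 libraries hold no replicates and no difference between them could be tested.

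Interferons are cytokines that signal through cell surface receptors, JAK kinases and STAT factors to switch on a large set of antiviral genes. Ifitm3, Ifitm2 and Ifitm1 encode small membrane proteins of this set that hinder enveloped viruses from fusing with cell or endosome membranes, and many cells also make them without infection. Ifitm6 is a less studied mouse member known from myeloid cells. Ifitm5, also called Bril, is the bone member of the family, made by osteoblasts and not known as an interferon target, and mutation of its human counterpart causes a form of brittle bone disease. Bst2 encodes tetherin, an interferon-induced membrane protein of unrelated sequence that holds newly formed virus particles on the cell surface.

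The 5 Ifitm genes lie together on chromosome 7, and Bst2 lies on chromosome 8 (GRCm38.p6, the assembly of mm10). In order along the chromosome, the RefSeq gene spans were 140948958 to 140950243 for Ifitm5, 140954837 to 140959686 for Ifitm2, 140967429 to 140969827 for Ifitm1, 141009590 to 141010744 for Ifitm3 and 141015812 to 141016892 for Ifitm6. Bst2 spans 71534255 to 71537472 on chromosome 8. Ifitm1 is read from the plus strand and the other 5 genes from the minus strand. The transcripts of Ifitm2, Ifitm3, Ifitm5 and Ifitm6 have 2 exons, those of Ifitm1 have 2 or 3, and that of Bst2 has 5.

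The promoters were searched for the letters of 2 elements through which interferons act, because the members differed in their response to injury. The interferon-stimulated response element (ISRE), bound by complexes of STAT and IRF factors, was searched as GAAA, any 2 bases and GAAA, and the gamma-activated site, an element of the interferon-γ response, as TTCNNNGAA, on both strands of the window from 250 bases before to 50 bases after 1 RefSeq start per gene. The ISRE letters were found in 3 of the 6 members (Ifitm2, Ifitm3 and Bst2) and in 3.44% of 32851 promoter windows of the same length. The stretches of 30 bases that hold them are shown here 5′ to 3′ on the strand of the gene, with the ISRE letters in capitals.

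Ifitm2, chr7:140955979-140956008, minus strand: gGAAAAGGAAAttgctagagaaagggcggg
Ifitm3, chr7:141010714-141010743, minus strand: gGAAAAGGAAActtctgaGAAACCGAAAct
Bst2, chr8:71537574-71537603, minus strand: gGAAAATGAAACTGAAAggctgcagtttct

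Ifitm3 and Bst2 held 2 matches each and Ifitm2 held 1. In Bst2 the 2 matches overlap, starting 130 and 124 bases before the RefSeq start, whereas in Ifitm3 they start at bases 3 and 20 of the first exon and in Ifitm2 the match starts 46 bases before the start used here, which lies inside the gene span given above. The gamma-activated letters were present in Ifitm3, Ifitm6 and Bst2, against 8.30% of all windows. In Ifitm3 and Bst2 they overlap an ISRE match. Ifitm1 and Ifitm5 held neither set of letters in this window. As for Ifitm2, the Ifitm1 start used here lies inside the gene span, and the upstream end of that span was not searched for either gene. For Ifitm5, the bone member, the 250 bases before the start are given with the 2 copies of the GC box GGGCGG in capitals, letters bound by Sp family factors and found on either strand in 35.7% of the windows and in 5 of the 6 members.

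Ifitm5, chr7:140950244-140950493, minus strand: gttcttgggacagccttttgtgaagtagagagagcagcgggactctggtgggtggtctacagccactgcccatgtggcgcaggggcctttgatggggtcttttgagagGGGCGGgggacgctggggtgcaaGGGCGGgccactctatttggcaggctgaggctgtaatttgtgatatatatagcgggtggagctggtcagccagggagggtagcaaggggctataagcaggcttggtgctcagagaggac

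These matches describe letters in a window and do not show that a factor binds there.

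Expression was deposited as FPKM, fragments scaled by transcript length and by the mapped fragments of the library, a scale on which levels can be compared between genes because transcript length is divided out. If the smallest regular step in the values is 1 fragment, the members with a single transcript would rest on about 114 fragments (Ifitm5, young sham) to 11355 fragments (Ifitm2, adult injured). Whole fragments were not recovered, so no counting interval is given. Changes are log2 ratios of FPKM + 1, and a gene counts as changed at 2-fold or more, a log2 ratio of 1. It was calculated for 18181 genes, those not at 0 in all libraries. Their median was 0.00 for injury in the young, 0.14 for injury in the adult and −0.15 for adult against young sham cartilage. Rescaling by the median of ratios, which applies 1 factor to each library, gave 0.00, 0.01 and −0.0033. It moved the split of changed genes in adult injury from 1255 higher and 266 lower to 866 and 455, and in adult against young sham from 484 higher and 1934 lower to 972 and 1009.

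Ifitm2 was the most abundant member in every library and Ifitm3 the member with the highest log2 ratio after injury in the young. Levels are given in the order young sham, injured young, adult sham and injured adult cartilage. Ifitm2 stood at 307, 533, 538 and 674 FPKM. By level it ranked between 105 and 222 among all genes. Ifitm3 stood at 46.4, 406, 96.4 and 229.7 FPKM. Bst2 stood at 6.76, 54.1, 13.6 and 33.6 FPKM. For both Ifitm3 and Bst2 young sham was lowest, then adult sham, then adult injured, and young injured was highest. That order was shared by 2.89% of the genes above 0 and was the same for both genes under the 3 ways of rescaling the libraries. Ifitm1 stood at 6.55, 17.1, 22.3 and 34.1 FPKM. Ifitm5, the bone member, stood at 5.62, 13.1, 15.5 and 23.3 FPKM. Ifitm1, Ifitm2 and Ifitm5 had a different order in common, with both young libraries below both adult libraries and the injured above the sham at each age. This order was found for 3.47% of genes and was also kept under the 3 rescalings. Ifitm6 stood at 14.5, 29.6, 18.2 and 17.9 FPKM, high in young injured cartilage and close together in the other libraries. With 1 library per group the spread around these levels is unknown, and neighbouring levels such as 533 and 538 FPKM for Ifitm2 or 18.2 and 17.9 FPKM for Ifitm6 cannot be ordered.

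**Figure D1:**
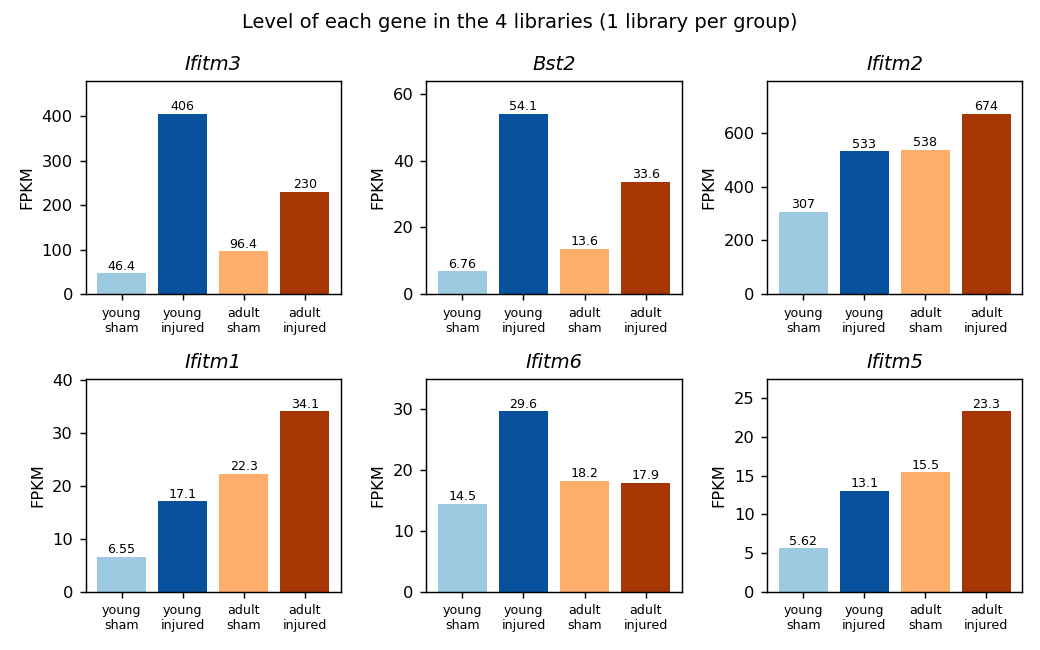
FPKM (vertical axis, from 0, with its own range in each panel) of the 6 genes in the 4 libraries, 1 bar per library with its value above it and no error bar because each group is 1 library. Ifitm3, Bst2 and Ifitm6 are highest in young injured cartilage, and Ifitm1, Ifitm2 and Ifitm5 in adult injured cartilage.

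In young cartilage, 4 of the 6 members were at least 2-fold higher after injury, and none was lower. Among all genes tested, 4.57% were at least 2-fold higher in that comparison and 1.27% lower, 5.83% in all. Ifitm3 rose by a log2 ratio of 3.10, a plain fold of 8.73, and Bst2 by 2.83, a plain fold of 8.01. Their ratios were larger than those of 99.7% and 99.6% of the genes tested. Ifitm1 rose by 1.26 and Ifitm5 by 1.09. With 5 FPKM added in place of 1, these 2 genes had 0.93 and 0.77, short of 2-fold. Ifitm6 had a log2 ratio of 0.99, just short of 2-fold on the scale with the added 1, although its plain fold was 2.05. Ifitm2 had the smallest log2 ratio, 0.79, from the highest starting level. The median of the 6 members was 1.17 and that of all genes tested was 0.00.

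In adult cartilage, 2 of the 6 members were at least 2-fold higher after injury, against 6.90% of all genes tested higher, 1.46% lower and 8.37% either way. These were Bst2 and Ifitm3, with log2 ratios of 1.25 and 1.24. Ifitm1 had a log2 ratio of 0.59, Ifitm5 of 0.56 and Ifitm2 of 0.33, none of which reached 2-fold. Ifitm6 had a log2 ratio of −0.02 and was the only member not above 0, but its direction turned to 0.07 with each library brought to an equal total (TPM) and was −0.28 after median-of-ratios scaling. The median of the members was 0.58 against 0.14 for all genes tested. After median-of-ratios scaling Bst2 and Ifitm3 had log2 ratios of 0.99 and 0.97 and no member was past 2-fold.

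All 6 members had the larger log2 injury ratio in young cartilage, and this held under each of the 3 rescalings and the 2 other pseudocounts. Of all genes tested, 33.7% had the larger ratio in young cartilage, or 24.1% as TPM, 49.6% by median of ratios and 49.2% by quantiles. The study picked Ifitm1, Ifitm3, Ifitm6 and Bst2 from the same libraries as interferon-γ response genes raised in young cartilage, so the direction of these 4 is not independent evidence. The difference between the ages was 1.86 for Ifitm3, 1.58 for Bst2 and 1.01 for Ifitm6 on the log2 scale. It was 0.66 for Ifitm1, 0.52 for Ifitm5 and 0.47 for Ifitm2. A difference of 1 or more was reached by 3 members and by 1.64% of all genes tested. Ifitm6 was close to that limit and fell short of it on the TPM scale (0.82) and with a pseudocount of 5 FPKM (0.85).

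**Figure D2:**
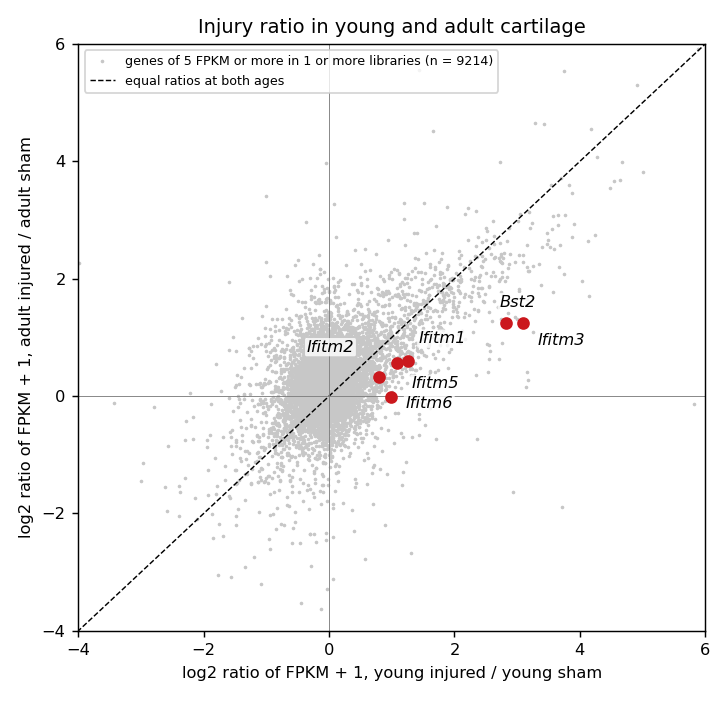
Log2 ratio of FPKM + 1 after injury in adult (vertical axis) against young cartilage (horizontal axis), with the 6 genes in red and labelled, 9214 genes that reach 5 FPKM in any library in grey (11 lie outside the axes), and a dashed line where both ages are equal. All 6 red points lie below the line, Ifitm3 and Bst2 farthest from it.

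Between the sham libraries, all 6 members were higher in adult than in young cartilage, 3 of them by 2-fold or more. Of all genes tested, 2.66% were at least 2-fold higher in the adult, 10.6% lower and 13.3% either way. The young sham label gives day 3 and the adult sham label days 3 to 14, so age and day cannot be told apart here. The log2 ratio of adult to young sham was 1.62 for Ifitm1, 1.31 for Ifitm5 and 1.04 for Ifitm3. It was 0.91 for Bst2, 0.81 for Ifitm2 and 0.31 for Ifitm6. All genes tested had a median of −0.15, and the members stood above it also after median-of-ratios scaling, where their log2 ratios ranged from 0.68 for Ifitm6 to 1.98 for Ifitm1. This comparison shares its sham libraries with both injury comparisons, so that a high adult sham value also lowers the adult injury ratio.

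Between the injured libraries, none of the 6 members differed by 2-fold, against 4.89% of all genes tested, of which the young library was higher for 3.09% and lower for 1.80%. Ifitm3, Ifitm6 and Bst2 were higher in the young, with log2 ratios of young to adult of 0.82, 0.70 and 0.67. Ifitm1, Ifitm5 and Ifitm2 were lower in the young, with −0.96, −0.79 and −0.34. These directions held under the 3 rescalings. Ifitm1 passed 2-fold under each of them, with −1.16 on the TPM scale. After injury in the young, Ifitm1 reached 17.1 FPKM, below the 22.3 FPKM of adult sham cartilage, while Ifitm3 reached 406 FPKM, above both adult libraries.

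A comparison of members within a library does not depend on any scaling that applies 1 factor to each library. In the order used above, the 5 Ifitm genes summed to 380, 998, 690.1 and 979 FPKM. Ifitm2 made up 80.8%, 53.4%, 77.9% and 68.9% of the sum, and Ifitm3 made up 12.2%, 40.6%, 14.0% and 23.5%. The composition of these 5 was thus alike in both sham libraries and moved towards Ifitm3 after injury, most in the young. Ifitm10, not a member and not in the sum, stood at 52.6, 67.1, 13.3 and 19.6 FPKM. Shares that count it would differ between the shams. Ifitm3 was at 15.1% of the level of Ifitm2 in young sham cartilage and 76.1% after injury, and at 17.9% and 34.1% in the adult. Ifitm1, Ifitm5 and Ifitm6 together were a small part, with Ifitm6 between 1.83% and 3.81%, Ifitm1 between 1.71% and 3.48% and Ifitm5 between 1.31% and 2.38% of the sum.

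**Figure D3:**
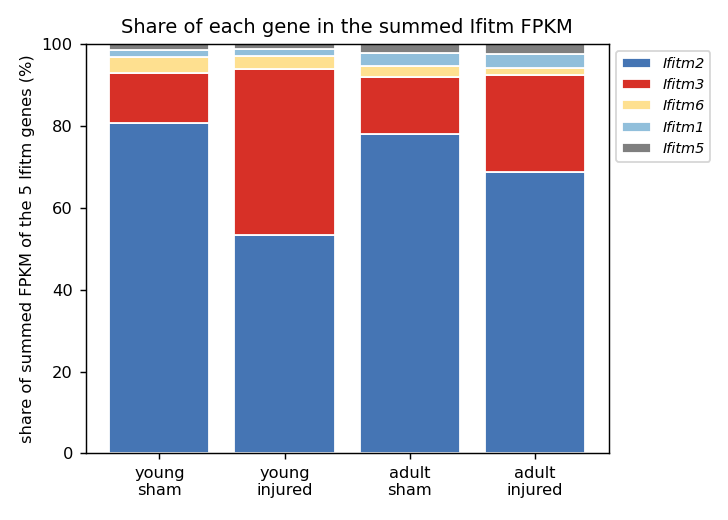
Share of each of the 5 Ifitm genes in their summed FPKM (vertical axis, percent) in each library, stacked to 100. The red part, Ifitm3, grows from 12.2% to 40.6% with injury in young and from 14.0% to 23.5% in adult cartilage.

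Shared sequence limits how firmly single members can be read. In coding sequence, aligned end to end with gaps counted as differences, Ifitm2 and Ifitm3 were 75.8% identical, Ifitm1 was 63.5% identical to Ifitm3 and 60.2% to Ifitm2, and Ifitm5 was between 48.9% and 50.4% identical to the other Ifitm members, a range not far above the 37.9% to 47.8% between Bst2 and the Ifitm genes. Of the 31-base words in their transcripts, Ifitm2 shared 55.5% with other annotated genes, Ifitm5 27.2%, Ifitm3 20.5% and Ifitm1 11.6%. Ifitm6 and Bst2 shared none. With more than 50% shared, the level of Ifitm2 is uncertain. Of its words, 38.1% were shared with Gm45717, an annotated gene that uses an exon of Ifitm2 itself. The words of Ifitm5 were shared with a single gene, Gm45717, which the GENCODE annotation places on chromosome 7 from 140949222 to 140955937 on the minus strand. Its 2 exons are 268 bases of Ifitm2 exon and 227 bases of Ifitm5 exon, so that it joins the 2 genes in 1 read-through transcript. Gm45717 was not analysed here, and fragments of such a transcript could not be told apart from those of Ifitm5 in the shared exon, even in a strand-specific library. Ifitm5 was at 1.83% of the level of Ifitm2 in young sham cartilage and 2.45% after injury, and at 2.87% and 3.46% in the adult. The part of read-through in the level of Ifitm5 was not tested.

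The Ifitm genes were set beside the 3 genes of the table on either side of the cluster. Athl1, which ends next to Ifitm5 and encodes an enzyme that removes glucose from collagen, stood at 26.1, 23.8, 30.1 and 27.4 FPKM. Injury gave it a log2 ratio of −0.12 in the young and −0.13 in the adult. BC024386 was listed at 0 in all libraries and Nlrp6 did not exceed 0.0429 FPKM. On the other side B4galnt4, Pkp3 and Sigirr were at no more than 1.27 FPKM, with log2 ratios after injury between −0.31 and 0.64. Beside Bst2, the endothelial gene Plvap rose by 1.94 in young and 1.85 in adult cartilage, and the others, Ano8, Gtpbp3, Mvb12a, Tmem221 and Nxnl1, had log2 ratios between 0.00 and 0.44. The age difference in the injury ratio ranged from −0.35 for B4galnt4 to 0.22 for Sigirr among these neighbours, and from 0.47 to 1.86 among the members.

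**Figure D4:**
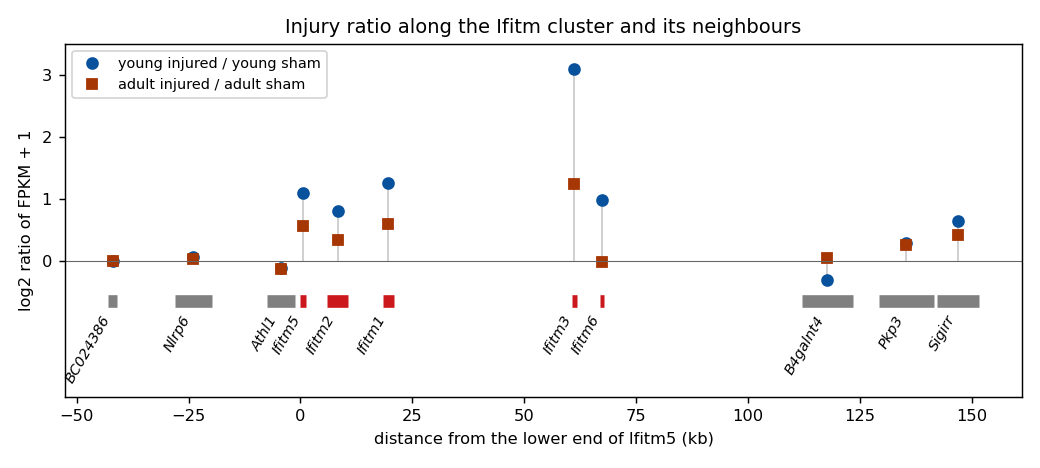
Log2 ratio of FPKM + 1 after injury (vertical axis) in young (circles) and adult cartilage (squares) along the Ifitm cluster, plotted by distance in kb from the lower end of Ifitm5, with the Ifitm genes as red bars and the 3 genes on each side as grey bars. Ifitm3 stands highest, at 3.10 in young and 1.24 in adult cartilage, and Athl1, beside Ifitm5, lies near 0 at both ages.

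Likeness between patterns was measured as the Euclidean distance between the 4 values of log2(FPKM + 1), each profile centred on its own mean, among the 9214 genes that reach 5 FPKM in any library. Profiles of 4 libraries carry little information, so these are descriptions of these libraries. Ifitm3 and Bst2 were close to each other, at a distance of 0.19, and Ifitm1 and Ifitm5 at 0.27. Ifitm2 lay 0.55 from Ifitm5 and 0.81 from Ifitm1, and the distances from Ifitm3 to Ifitm1, Ifitm2, Ifitm5 and Ifitm6 were 1.77 to 1.82. The gene nearest to Ifitm3 in the whole pool was Bst2, followed by the interferon-induced genes Ifi27l2a (0.27) and Ifi204 (0.30). Those nearest to Bst2 were Ifi27l2a (0.12), Ifitm3 and Ifi205 (0.21). Nearest to Ifitm1 was Dmp1, a matrix protein gene of osteocytes, at 0.13, which stood at 12.4, 27.4, 37.7 and 59.5 FPKM. Tmie (0.23) and Car5b (0.26) followed. Nearest to Ifitm5 were Tspan4 (0.15), Metrnl (0.17) and Fxyd5 (0.17). Ifitm2 was nearest to Slc48a1 (0.04), a heme transporter gene, then Orai2 and Crlf2 (both 0.11). Ifitm6 was nearest to Abi1 (0.12), Anapc15 (0.17) and Lsp1 (0.18), the last a leukocyte gene.

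Ifitm5 was set beside 17 genes of osteoblasts and osteocytes. After injury 3 of the 17 were at least 2-fold higher in young cartilage and 5 in adult cartilage, where 1 was lower, with medians of 0.08 and 0.61. By median of ratios the adult count was 2 higher and 2 lower. Between the shams 10 were at least 2-fold higher in the adult and 1 in the young, with a median of 1.53. Ifitm5 had 1.09, 0.56 and 1.31 in these comparisons. The 3 most abundant genes of the list differed among themselves. The matrix glycoprotein gene Sparc had injury ratios of −0.34 (young) and −0.999 (adult) on the log2 scale, the latter just short of 2-fold. Spp1, which encodes osteopontin and is also made by macrophages, rose by 2.56 in young cartilage and had a log2 ratio of 0.86 in adult cartilage. Ibsp, which encodes bone sialoprotein, had 0.71 and 0.03. Their sham comparison was in the same direction as that of Ifitm5, with log2 ratios of adult to young of 1.35 for Sparc, 2.78 for Spp1 and 3.48 for Ibsp. The summed FPKM of the 17 genes was 10620, 11664, 31334 and 23615 in the order used above, of which Sparc, a gene not limited to bone, held 8634, 6815, 22039 and 11027. The part of bone cells in the level of Ifitm5 was not tested.

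Among genes of the interferon pathway, the ligands were at or near 0. Ifng was listed at 0 in 3 libraries and at 0.0322 FPKM in adult injured cartilage, Ifnb1 was at 0.0493 FPKM in young injured cartilage and at 0 elsewhere, and Ifna4 was at 0.0603 FPKM in adult injured cartilage and at 0 elsewhere. Ifna2, Ifne and Ifnk were listed at 0 in all 4. The receptor genes were present in every library. Ifngr1 had log2 ratios after injury of 0.57 in young and 0.59 in adult cartilage, Ifngr2 0.34 and 1.25, Ifnar1 0.13 and 0.35, and Ifnar2 0.47 and 0.40. Irf9, which encodes a DNA-binding part of the type I interferon factor complex and was named after its values were seen, had 1.08 and 0.94. Where the age difference in the injury ratio was 1.86 for Ifitm3 and 1.58 for Bst2, it was −0.02 for Ifngr1, −0.91 for Ifngr2, −0.22 for Ifnar1 and 0.07 for Ifnar2.

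Downstream genes were counted in lists without the members. Of 30 type I interferon response genes, 23 were at least 2-fold higher after injury in young and 14 in adult cartilage, with medians of 1.82 and 0.90, and the median difference between the ages was 0.65. Their most abundant genes, Ifi27l2a, Isg15 and Irf7, had differences of 1.42, 0.57 and 0.92. The study picked Isg15 and Irf7 from these libraries too, so they are not independent evidence of the direction. It classed both as interferon-γ-related genes, so their place in the type I list is a choice made here. Of 29 interferon-γ response genes above 0, 16 and 14 were at least 2-fold higher, with medians of 1.14 and 0.99 and a median difference of 0.10, beside −0.12 for all genes tested. That difference was −0.06 on the TPM scale, 0.30 by median of ratios and 0.32 by quantiles. The antigen presentation genes B2m, H2-D1 and H2-K1, the most abundant of that list, had differences of 0.37, 1.24 and 0.69. The differences of Ifitm3 and Bst2, 1.86 and 1.58, were above the median of both lists but within the range of the type I list, in which Ifit3 had 2.89 and Ifit3b, Usp18 and Ifit1 had 1.98, 1.92 and 1.86, genes named after their values were seen. In the sham comparison of adult with young, the median was 0.97 for the members, −0.06 for the type I list and 0.13 for the type II list. Single genes of the lists overlapped the members, among them H2-D1 at 1.79 and H2-K1 at 1.07.

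**Figure D5:**
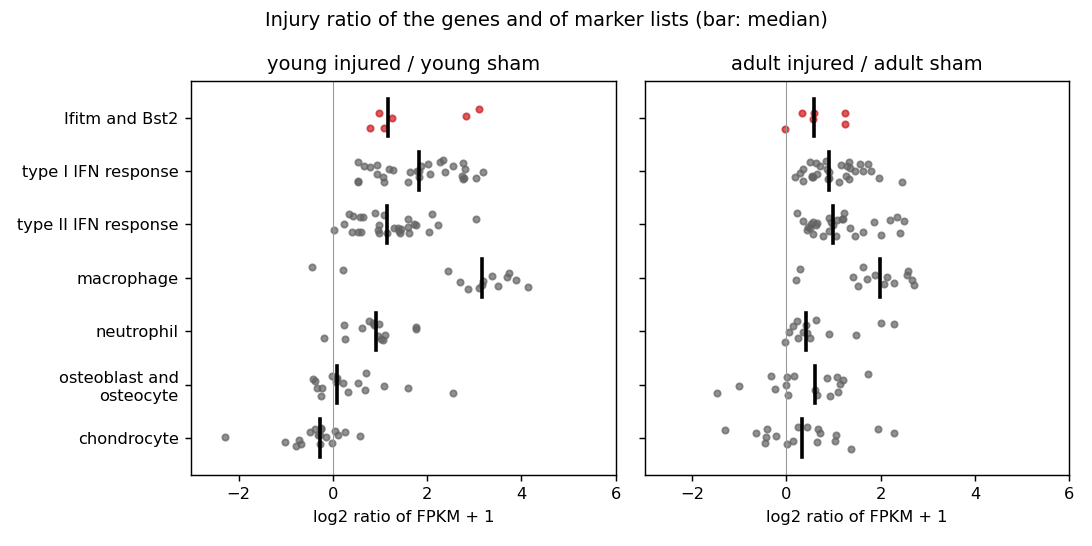
Log2 ratio of FPKM + 1 after injury (horizontal axis) for the 6 genes (red) and for the genes of each list (grey, 1 point per gene, spread vertically for visibility), in young (left) and adult cartilage (right), with a black bar at the list median. The medians of the 6 genes are 1.17 and 0.58, between those of the chondrocyte list (−0.28 and 0.34) and the macrophage list (3.17 and 1.98).

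The samples are labelled chondrocyte, but RNA of other cells was present and moved with injury. In bulk tissue, fewer cells of a type and less RNA per cell cannot be told apart. All 18 chondrocyte genes were above 0 in every library and summed to 28861, 24757, 40194 and 25179 FPKM in the order used above. That sum goes against most of its genes, since the matrix protein gene Chad, with a log2 ratio of adult to young sham of 2.88, carries much of the adult sham value, where Col2a1, the cartilage collagen gene, had −1.56 and Snorc −0.19. Between the shams 12 of the 18 were at least 2-fold lower in the adult, with a median of −1.37, and after injury the median was −0.28 in the young and 0.34 in the adult. The 14 macrophage genes, a cell type in which Ifitm2, Ifitm3 and Bst2 are well known to be expressed, summed to 205, 1947, 334 and 1688 FPKM, and 12 of them were at least 2-fold higher after injury at each age, with medians of 3.17 in young and 1.98 in adult cartilage. None of them was listed at 0 in any library. Between the shams 6 of the 14 were at least 2-fold higher in the adult and 1 lower, with a median of 0.85, beside 0.97 for the members. The sum was 9.49-fold higher after injury in young and 5.06-fold in adult cartilage. Most of it was Lyz2, which alone held 142, 1271, 183 and 1090 FPKM in the order used above. Ifitm3 rose by plain folds of 8.73 and 2.38 and Bst2 by 8.01 and 2.48. Lyz2 and C1qb, the most abundant of the list, had age differences of 0.59 and 2.44 on the log2 scale, and C1qc, the next, had log2 ratios of 3.38 and 1.89. The 14 neutrophil genes summed to 1314, 2762, 1691 and 2199 FPKM, with median log2 ratios of 0.91 after injury in the young and 0.42 in the adult, beside 0.99 and −0.02 for Ifitm6. The most abundant of them differed, with 1.10 and 0.24 for S100a9, 1.06 and 0.15 for S100a8, and 0.86 and 0.90 for Ngp. None of the neutrophil genes was at 0. The 6 monocyte genes summed to 93.7, 289.5, 90.7 and 266.5 FPKM and the 8 endothelial genes to 21.3, 100.5, 25.1 and 84.4 FPKM. Of the 5 genes of plasmacytoid dendritic cells, which carry much Bst2, the most defining, Siglech, did not exceed 0.71 FPKM. Their sum of 17.0, 19.0, 26.4 and 12.1 FPKM was mostly Cox6a2, which muscle also expresses, and Spib, which B cells also express. B cell genes, 10 in number, summed to 64.9, 91.9, 15.7 and 24.3 FPKM, lower in both adult libraries. The 10 T and NK cell genes, the cells that make interferon-γ, summed to 3.23, 6.03, 2.35 and 8.57 FPKM, with 1 of them at 0 in each sham library. Muscle genes (10) summed to 926, 721, 1821 and 492 FPKM and erythroid genes (7) to 9674, 18440, 6955 and 3031 FPKM. The part of these cells in the changes of the 6 members was not tested.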

How the data were processed

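RNA sequencing was performed by the authors on 4 cartilage libraries (paired-end, strand-specific, poly-A selected), and the values were deposited as FPKM per gene on mm10. The submitters' processing notes name HISAT2 2.1.0 and StringTie 1.3.4d among other tools; their roles are not given in the sources used here. FPKM were used as deposited, with log2(FPKM + 1) ratios, which understate changes of low genes, and a threshold of 2-fold. With 1 library per group no test, SD or p-value was calculated. The members and lists were chosen with earlier results of these data known. Alternatives were pseudocounts of 0.1 and 5 FPKM, dropping genes under 1 FPKM in all 4 libraries, TPM, median-of-ratios and quantile scaling, and thresholds of 1.5-fold and 3-fold.

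Genes named beside the members come from the 3 most abundant of each list, interferon ligands and receptors, other dispanins, the 3 nearest patterns per member and the 3 neighbours on each side of a locus; others are marked. Counts over the interferon ligand and receptor list are not reported here. Listed genes without their own symbol in the table were matched by RefSeq synonym, and 1 erythroid gene was unmatched. Coordinates and promoters came from RefSeq (GRCm38.p6), in which all 6 members matched, and transcripts from GENCODE M21. Fragment numbers assume that 1 step of FPKM times transcript length, found from 17286 genes with 1 transcript, is 1 fragment; 42.9% to 45.1% of the low values lay within 0.1 of a whole step. The scripts were tested on simulated data. Calculations used Python 3.11.15, numpy 2.4.6, pandas 2.3.3 and matplotlib 3.10.9.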

Additional observations from a re-analysis of the deposited data

Results flagged for a closer look

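Ifitm6 was drawn out because its log2 injury ratios had opposite signs at the 2 ages as deposited, 0.99 (young) and −0.02 (adult), a difference of 1.01. The difference was not tested, since each group is 1 library, and the adult value is close to 0 with no settled direction, ranging from −0.28 to 0.07 over the scalings and pseudocounts. The ratio in young cartilage was 0.90 to 1.00 over the 3 rescalings.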

How the results depend on the processing

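No paired analysis was possible because each group holds 1 library. The fold changes behind the 180 log2 ratios of members under an alternative pseudocount, filter or scaling moved by under 1.5-fold. Of the ratios only those of Ifitm6 in adult injury changed sign. The filter on low values cannot change the ratio of a member, so its part of the 180 is no check. Small log2 ratios moved more in proportion, that of Ifitm2 in adult injury from 0.33 to 0.05 by median of ratios. The counts of members past 2-fold were less stable. For injury in young cartilage the count of 4 became 2 with a pseudocount of 5 FPKM or a threshold of 3-fold, 5 with a pseudocount of 0.1 FPKM or median-of-ratios scaling and 6 with a 1.5-fold threshold. For injury in adult cartilage the count of 2 became 0 with median-of-ratios scaling or a 3-fold threshold and 3 with a 1.5-fold threshold. For adult against young sham the count of 3 became 1 with a pseudocount of 5 FPKM or a 3-fold threshold, 4 with quantile scaling and 5 with median-of-ratios scaling or a 1.5-fold threshold. Between the injured libraries the count of 0 became 1 with TPM, median-of-ratios or quantile scaling and 5 with a 1.5-fold threshold. The share of all genes past the threshold also moved. In young injury it was 5.83%, and 14.2% or 2.32% with a pseudocount of 0.1 or 5 FPKM, and in adult injury 8.37%, and 19.5% or 3.09%. Without replicate libraries or recovered fragment counts, neither biological spread nor counting error can be given for any member.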

Other observations

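The Ifitm genes belong to the wider dispanin family of small membrane proteins, of which 9 other genes were listed. Of the 7 above 0, none was at least 2-fold higher after injury at either age, where 4.57% (young) and 6.90% (adult) of all genes were, so that the count does not set them apart. Tmem233, Tusc5, Syndig1 and Tmem91 did not exceed 1.14 FPKM, a level at which the added 1 leaves little room for a 2-fold ratio. Prrt2 was lower in young cartilage, with a log2 ratio of −1.19 and levels of 12.9 FPKM in young sham and 5.10 FPKM in young injured cartilage. Ifitm10, the most abundant of them, stood at 52.6 FPKM in young sham cartilage and 67.1 FPKM after injury, and at 13.3 and 19.6 FPKM in the adult, with log2 injury ratios of 0.34 and 0.53. Its adult to young sham log2 ratio of −1.91 was opposite in direction to that of all 6 members. Prrt1 had 1.29 in that comparison, from 1.70 to 5.58 FPKM. Ifitm7 and Syndig1l were listed at 0 in all libraries.

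Of 11 genes whose products handle or bind Ifitm proteins, 0 were past 2-fold in young cartilage and 1 in adult cartilage, with no replicate test, where 5.83% and 8.37% of all genes were. By median of ratios the adult count was 1 higher and 2 lower. The most abundant were tetraspanin genes, with log2 injury ratios in young and adult of −0.73 and −0.73 for Cd9, 0.30 and 0.42 for Cd63 and −0.44 and −0.73 for Cd81. The gene past 2-fold, named after its values were seen, was Fkbp11, whose product binds Ifitm5 in bone cells. It stood at 60.4 FPKM in young sham cartilage and 90.1 FPKM after injury, and at 9.87 and 26.9 FPKM in the adult, an adult injury log2 ratio of 1.36 and a sham ratio of −2.50, where that of Ifitm5 was 1.31. Of 6 other antiviral genes that act at membranes, 2 were at least 2-fold higher at both ages, but in the adult 1 by median of ratios or quantiles and 3 as TPM. Ly6e rose by 1.96 in young and 2.01 in adult cartilage, without the age difference of Ifitm3, and Ch25h, also named after its values were seen, by 1.53 and 1.07. Serinc3 and Serinc5, which encode proteins that reduce virus infectivity, had 0.21 and −0.01 in the young and −0.08 and 0.92 in the adult.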
